A study of Caenorhabditis elegans with 2 samples.

Results

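The 275 peaks described here are those sites of UNC-62 binding on chromosomes I to V of Caenorhabditis elegans that lie away from the starts of protein-coding genes. They come from the peak list filtered by irreproducible discovery rate (IDR), a measure that favours peaks ranked alike in both replicates. A peak was kept when its summit was neither in the 1000 bp ahead of the 5' end of any protein-coding transcript nor in the 200 bp behind such an end. They made up 46.1% of the 597 autosomal peaks (exact 95% binomial interval 42.0% to 50.2%), and the other 322 are called promoter peaks here. The whole list held 843 peaks, 815 of them on the nuclear chromosomes. Members numbered 37 on chromosome I, 59 on chromosome II, 58 on chromosome III, 54 on chromosome IV and 67 on chromosome V.

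UNC-62 was mapped by chromatin immunoprecipitation and sequencing (ChIP-seq) in whole young adult worms at 4 days, with both sexes pooled. The strain, OP600, carries the allele unc119(ed3) and the transgene wgIs600, which holds unc-62 fused to the tags TY1, EGFP and FLAG together with an unc119 marker, and both samples share this background. With 2 biological replicates of 1 condition, no test between conditions can be made. The antibody label names unc-62 while the description names an eGFP fusion, so tagged and native protein cannot be told apart, nor can binding in different tissues of the whole animal. The strength of a peak is the signal value deposited by the authors, which has no stated unit, and the read depth behind it is unknown.

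UNC-62 belongs to the Meis and Homothorax class of TALE homeodomain proteins, which bind DNA alone or together with Pbx-class partners such as CEH-20, often as cofactors of Hox proteins. In worms it is known for roles in embryonic patterning, in cell migration and in the control of yolk genes in the adult intestine. Factors of this class act both at promoters and at enhancers, including enhancers inside introns.

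The sequences of 4 peaks narrower than the common width of 320 bp are printed here because they were among the strongest members and their spans are short enough to read whole. They are given 5' to 3' on the plus strand of ce11 (WBcel235), and capitals mark the Meis-type word TGACAG and the Pbx-Meis composite word TGATTGAC, or their reverse complements. The peak near M106.2 spans chrII:10851273-10851501, the peak upstream of unc-62 chrV:4491466-4491565, the peak in fbxl-5 chrV:7744189-7744337 and the peak near cki-2 chrII:7815102-7815191.
M106.2: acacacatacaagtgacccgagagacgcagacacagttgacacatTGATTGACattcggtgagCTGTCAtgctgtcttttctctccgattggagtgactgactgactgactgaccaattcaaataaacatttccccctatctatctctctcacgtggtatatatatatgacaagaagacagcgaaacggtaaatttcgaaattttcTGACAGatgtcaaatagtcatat
unc-62: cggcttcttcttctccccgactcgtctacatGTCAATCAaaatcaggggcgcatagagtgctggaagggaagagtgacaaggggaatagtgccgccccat
fbxl-5: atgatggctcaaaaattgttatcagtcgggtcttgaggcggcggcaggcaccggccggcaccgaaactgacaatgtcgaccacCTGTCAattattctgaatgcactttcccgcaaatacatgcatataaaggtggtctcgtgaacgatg
cki-2: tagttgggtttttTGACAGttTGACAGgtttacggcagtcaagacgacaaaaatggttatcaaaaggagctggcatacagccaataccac
The M106.2 peak held 2 Meis-type words and 1 composite word, the cki-2 peak 2 Meis-type words, the fbxl-5 peak 1 Meis-type word and the unc-62 peak 1 composite word. Another narrow peak, in pno-1, held 0 copies of either word. A match is a description of the letters and does not show a bound site.

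The composite word lay within 50 bp of the summit in 18 members. Windows of 40 bases around it are printed for 7 of these, at genes named below for their other values, each on the strand that reads the composite word forward (capitals). The windows are chrII:9622247-9622286 (plus) for dnj-20, chrIII:4448165-4448204 (minus) for ceh-43, chrII:12353254-12353293 (minus) for ras-1, chrII:5932061-5932100 (plus) for egl-44, chrII:12982214-12982253 (minus) for cyd-1, chrIII:10344981-10345020 (plus) for tbx-8 and chrV:3969807-3969846 (minus) for cyp-34A9.
dnj-20: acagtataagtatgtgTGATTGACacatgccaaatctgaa
ceh-43: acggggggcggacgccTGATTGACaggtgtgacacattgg
ras-1: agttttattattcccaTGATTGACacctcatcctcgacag
egl-44: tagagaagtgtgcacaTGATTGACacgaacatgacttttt
cyd-1: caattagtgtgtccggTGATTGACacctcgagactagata
tbx-8: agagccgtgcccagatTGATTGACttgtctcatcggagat
cyp-34A9: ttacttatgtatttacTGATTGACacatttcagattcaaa
Of the 14 such windows on chromosomes II to V, 13 had A as the next base after the composite word. In 3 of these, ceh-43 among them, the next bases were AG, which completes a Meis-type word that overlaps the composite one.

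The strongest members lay beside genes of varied function. The strongest of all autosomal peaks was a member on chromosome I, 1168 bp upstream of casc-3. Its deposited signal was 241, with 106 in the list of replicate 1 and 148 in that of replicate 2. The peak 1380 bp upstream of M106.2 had a signal of 136 (61.4 in replicate 1 and 76.3 in replicate 2). Both exceeded the members' medians, which were 41.0 in the combined list, 15.3 in replicate 1 and 27.5 in replicate 2. Both stood alone, with the nearest other autosomal peak 370392 bp from the first and 246148 bp from the second.

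The third strongest member lay 5963 bp upstream of unc-62 itself, with a signal of 127 (34.2 in replicate 1 and 94.2 in replicate 2). The peak in the first intron of fbxl-5, which encodes an F-box protein, followed with 118 (47.2 in replicate 1 and 74.9 in replicate 2). The peak upstream of cki-2, which encodes an inhibitor of cyclin-dependent kinases, had 114 (48.6 in replicate 1 and 64.2 in replicate 2). The summit of the cki-2 peak was inside the ncRNA genes T05A6.14 and T05A6.16. The peak in an intron of pno-1 had 109 (36.3 in replicate 1 and 70.7 in replicate 2). These 6 members were all narrower than 320 bp, as were 4 promoter peaks, and the other 269 members reached at most 102. That value belonged to an intron of dnj-20, a gene for a DnaJ-domain chaperone (32.4 in replicate 1 and 71.1 in replicate 2). Whether the caller's choice of width bears on the signal of narrow peaks was not tested.

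The rest of the 20 strongest members had signals of 75.2 to 96.4. Their genes included fasn-1, which encodes fatty acid synthase (80.0), fkh-7, a forkhead transcription factor gene (76.9), pkg-2, a cGMP-dependent protein kinase gene (77.7), and sup-26, which encodes an RNA-binding protein (76.5). They also included msp-78, a major sperm protein gene (86.5), and dod-23 (75.2), named as a gene downstream of daf-16. The others were Y111B2A.12, F26G1.5, Y43F8B.2, C47A4.1, F53H2.3, Y65A5A.1 and F17C11.22.

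Members and promoter peaks had overlapping signals. The median was 41.0 for members (quartiles 35.6 and 50.5, range 31.2 to 241) and 39.2 for promoter peaks (quartiles 34.3 and 48.2, range 31.2 to 137). In the list of replicate 1 the medians were 15.3 for members and 15.0 for promoter peaks, and in that of replicate 2 they were 27.5 for members and 25.9 for promoter peaks. Members were 25 of the 50 strongest autosomal peaks and 6 of the 10 strongest. Members outside protein-coding genes had a median of 40.8 and those inside them 41.2.

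**Figure D1:**
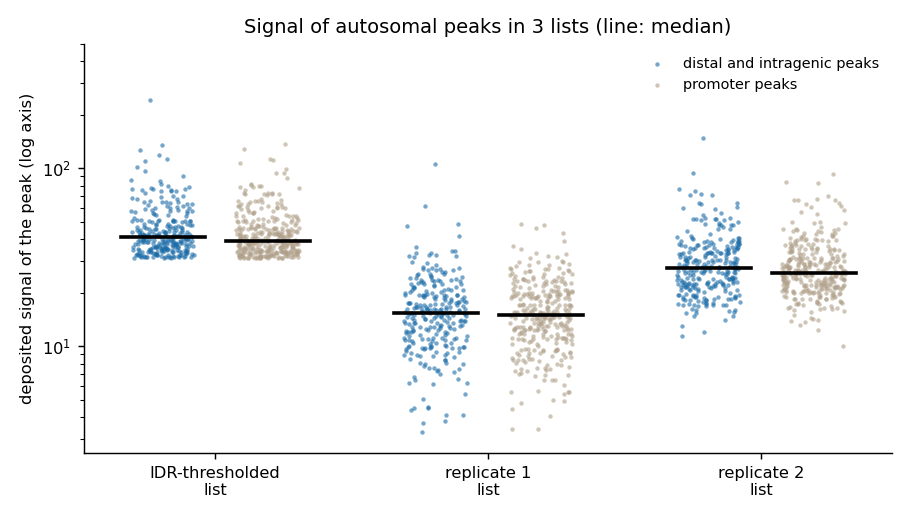
Deposited signal (log axis) of each distal or intragenic peak (blue, left in each pair) and each promoter peak (tan, right) in the IDR-thresholded list and in the strongest overlapping peak of each replicate list, with the median as a black line. The medians of the 2 kinds of peak lie close together in each list, at 41.0 and 39.2 in the first, and the highest point is the member near casc-3 at 241.

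All 275 members overlapped a peak of replicate 2 by at least 1 bp, and 273 one of replicate 1. The IDR list was made from these lists, so this overlap is no separate evidence. The signal was higher in replicate 2 in 245 of the 273 members found in both, and the median ratio of replicate 1 to replicate 2 was 0.534 (0.558 for promoter peaks). The lists are not stated to share a scale. Of the members, 130 (47.3%) were among the 843 strongest peaks of each replicate, against 47.5% of promoter peaks. The rank correlation (Spearman) of the replicate signals was low, at 0.096 over the 273 members and 0.138 over promoter peaks. The replicates thus ranked the members differently by strength. How far the choice of peaks by threshold bears on these correlations was not tested.

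By annotation, members lay mostly between genes and in introns, and hardly ever in coding sequence. The summit was intergenic in 161 members (58.5%, 52.5% to 64.4%), against 29.1% of all autosomal bases outside the promoter windows, called eligible bases here. It was in an intron in 94 (34.2%, 28.6% to 40.1%), against 37.7% of eligible bases. Coding sequence held 3 members (1.09%, 0.226% to 3.15%), in F17C11.22, oac-57 and lfe-2, against 26.6% of eligible bases. Exons of noncoding genes held 11 (4%), against 3.18% of eligible bases, 5' UTRs 4 (1.45%), against 0.377%, and 3' UTRs 2 (0.727%), against 3.06%. The intervals cover counting of peaks only. Genes named for counts of 5 or fewer were chosen after their values were seen.

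Members outside protein-coding genes tended to lie ahead of a gene rather than behind it. Of 172 such members, 137 (79.7%, 72.9% to 85.4%) were upstream of the nearest start, against 63.6% of eligible bases outside genes. Only 8 (4.65%, 2.03% to 8.96%) lay in gaps between the 3' ends of convergent genes, against 17.6% of such bases. Tandem gaps held 113 (65.7%, 58.1% to 72.8%), against 53.4%, and divergent gaps 51 (29.7%, 22.9% to 37.1%), against 28.8%. The gap holding a member had a median length of 5668.5 bp, against 7293 bp over eligible bases outside genes.

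Intronic members sat in long introns of long genes, often in the first intron. The intron was the first of its transcript in 47 of 94 (50%, 39.5% to 60.5%), against 27.1% of eligible intronic bases. It was 1000 bp or longer in 70 of 94 (74.5%, 64.4% to 82.9%), against 47.5%, with a median of 3216.5 bp against 936 bp. The 83 host genes had a median length of 10500 bp, against 1964 bp for all 17242 autosomal protein-coding genes. Among them, fkh-7 held its member in a first intron of 16465 bp and fbxl-5 in a first intron of 5849 bp. A long gene offers more bases to a peak, which the comparison of gene lengths does not allow for, while the comparisons over bases do.

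The median distance from a member to the nearest protein-coding start was 1849 bp (quartiles 1250.5 and 3201 bp), close to the 1853 bp of eligible bases. Direction differed more than distance. The nearest start lay downstream of 163 members (59.3%), against 32.5% of eligible bases. The class from 2000 to 5000 bp upstream held 69 members (25.1%, 20.1% to 30.6%), against 14.3% of eligible bases. Only 24 members (8.73%) were more than 5000 bp away, against 11.7% of eligible bases.

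**Figure D2:**
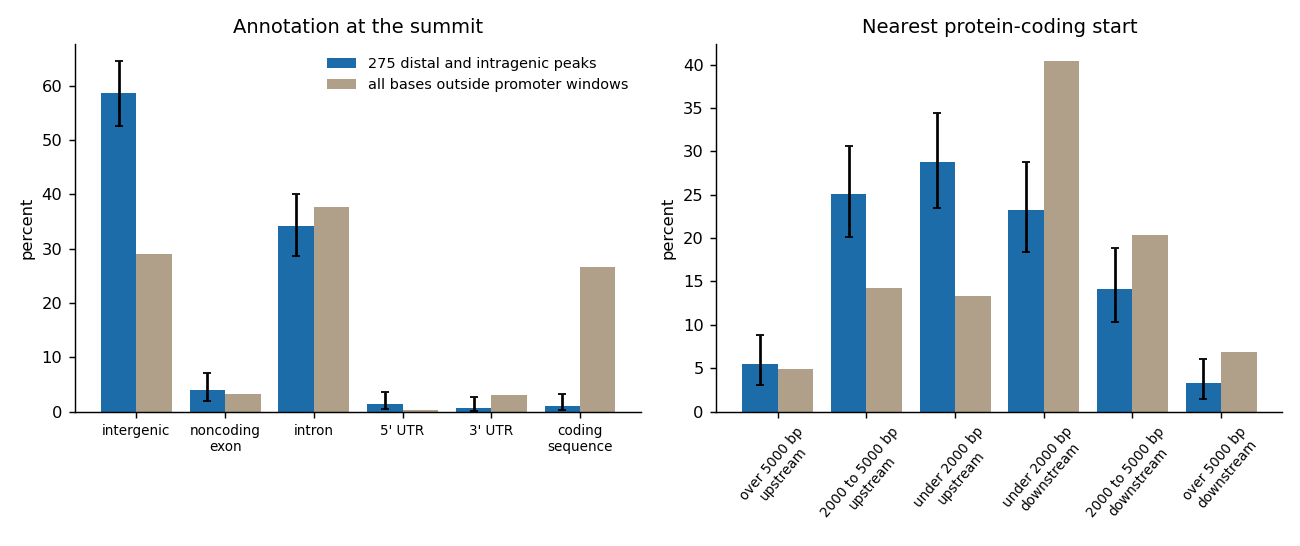
Left, percent of the 275 distal and intragenic peaks (blue, with exact 95% binomial intervals) and of all bases outside the promoter windows (tan) in each annotation class. Right, the same by distance and side of the summit relative to the nearest protein-coding start, where members exceed the bases in the classes under 2000 bp upstream (28.7% against 13.3%) and 2000 to 5000 bp upstream (25.1% against 14.3%).

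The member farthest from any protein-coding start lay in an intron of 13600 bp of sos-1, which encodes the exchange factor for Ras. It was 12697 bp from the start of T28F12.1 and 23440 bp from the nearest start of sos-1, with a signal of 47.8 (17.6 in replicate 1 and 32.0 in replicate 2). The next were intergenic. They lay 10879 bp upstream of ZC190.4 (signal 43.1), 10347 bp upstream of ttx-1, an Otx-class homeobox gene of the thermosensory neuron (50.2), 9592 bp upstream of C30G12.2 (36.7) and 9171 bp upstream of kpc-1, which encodes a proprotein convertase (51.4).

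At the other end, 19 members lay within 100 bp of the border of a promoter window. The closest were 1004 bp upstream of a start of mstr-1 (50.5), 1004 bp upstream of a start of uda-1 (43.9), 211 bp downstream of a start of asic-2 (57.3) and 1015 bp upstream of a start of daf-14 (37.9). Just inside the windows lay promoter peaks 988 bp upstream of a start of bath-44 (38.6), 183 bp downstream of one of hpo-11 (32.4) and 175 bp downstream of one of pyk-1 (79.6).

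Most members stood alone, and 57 (20.7%, 16.1% to 26.0%) fell into 27 clusters, in which neighbouring summits lay within 5000 bp of each other. There were 24 pairs and 3 groups of 3, spanning 547 to 4982 bp with a median of 1849 bp. In 19 of the clusters all members were assigned to the same gene, that is, the gene around the summit or otherwise the gene with the nearest start. Gaps of at most 5000 bp made up 11.1% of the 270 gaps between neighbouring members, against 7.89% of the 317 gaps between neighbouring promoter peaks. A promoter peak lay within 5000 bp of 44 members (16.0%), and any other autosomal peak within that distance of 88 members (32%), against 26.7% of promoter peaks.

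The first group of 3 lay within 1 intron of 6824 bp of pkg-2, over 2964 bp. Its signals were 42.4, 45.2 and 77.7 from left to right. Replicate 1 gave 12.9, 19.8 and 41.8 for these peaks and replicate 2 gave 36.7, 21.5 and 38.3, so replicate 1 was higher only for the strongest of them. A promoter peak with a signal of 37.7 lay farther right, at another start of the gene.

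The second group lay in the gap of 7127 bp between lpin-1, which encodes the phosphatidate phosphatase lipin, and letm-1, a gene for a mitochondrial inner membrane protein. The genes diverge from this gap. The signals were 36.4 and 42.4 for the peaks nearer lpin-1 and 42.7 for the peak nearer letm-1, within a span of 1818 bp. Replicate 1 gave 9.99, 7.77 and 21.9, and replicate 2 gave 30.2, 31.9 and 24.0.

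The last group lay upstream of F53H2.3 over 1752 bp, with signals of 38.0, 78.2 and 38.2. The summits were 4076, 5337 and 5828 bp from the nearest start of a protein-coding transcript of the gene. The annotated gene itself extends past that start to chrV:20411759, much closer to the first summit at chrV:20412372. These distances therefore overstate how far the group lies from the 5' end of the gene. Replicate 1 gave 19.7, 33.6 and 4.58, and replicate 2 gave 15.7, 45.7 and 35.3. The middle peak was the highest in each replicate list. The peak at 5828 bp was weakest in replicate 1, where it stood near the lowest value of any member (3.28).

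The unc-62 locus held 3 members and also promoter peaks. Beside the peak 5963 bp upstream (127), there was an intronic member (39.2, with 20.8 in replicate 1 and 22.3 in replicate 2) and a member in a 5' UTR stretch (62.9, with 28.6 in replicate 1 and 23.8 in replicate 2). The far upstream peak was paired with a member 4702 bp away, behind exc-15 (39.0). Promoter peaks of 79.1, 58.5 and 33.6 lay at starts of unc-62. The transgene carries unc-62, so binding at the native gene and at the transgene cannot be told apart.

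**Figure D3:**
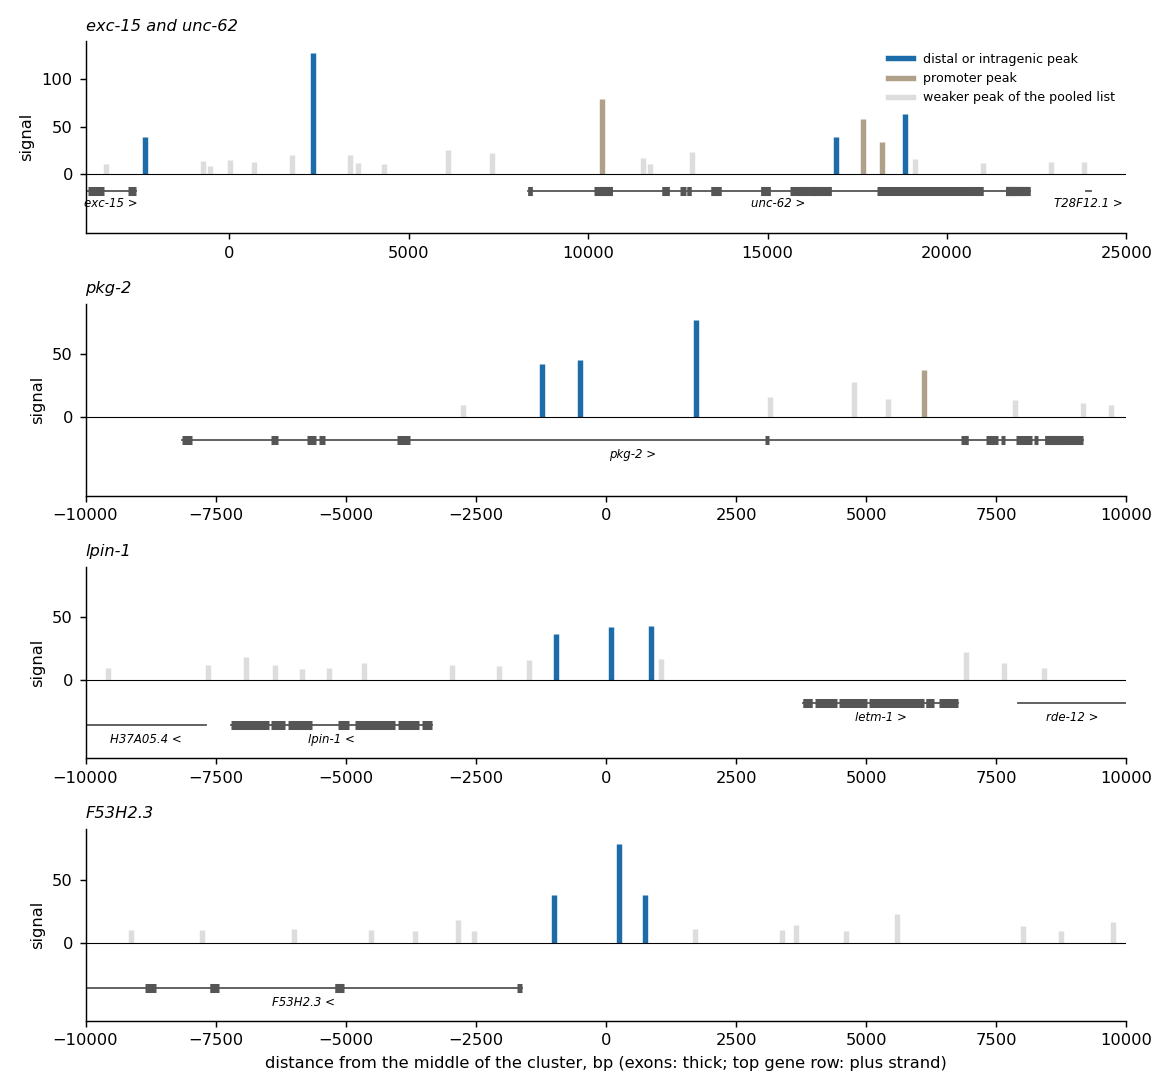
Deposited signal of peaks against distance from the middle of a cluster (bp) at exc-15 and unc-62, pkg-2, lpin-1 and F53H2.3, with members in blue, promoter peaks in tan and weaker peaks of the pooled list in grey. Below each, genes are drawn as lines, with exons as thick bars for the genes that members were assigned to, and the members stand out at 127 upstream of unc-62 and at 77.7 in pkg-2.

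Members were assigned to 244 of 17242 autosomal protein-coding genes, that is 1.42% of them, and promoter peaks covered 382 genes, that is 2.22%. Of the 244 genes, 30 (12.3%) also had a promoter peak, unc-62, fbxl-5, pkg-2, egl-44, atf-7 and cyd-1 among them. One member was assigned to each of 218 genes, 2 members to 21 genes and 3 members to 5 genes, which were C30G12.2, F53H2.3, pkg-2, unc-62 and vhp-1, a gene for a phosphatase of MAP kinases. A member outside genes can lie past the 3' end of the gene it was assigned to. Among the genes named here this was so for F26G1.5, msp-78, Y65A5A.1, lin-23, ins-13, cpn-3, fbxb-22 and exc-15.

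Of the 8 autosomal genes in the list of TALE and Hox genes, 2 had promoter peaks and 2 had members. Those with members were unc-62 and the labial-class Hox gene ceh-13. They took 1.45% of members, against 0.146% of eligible bases, and 3 of these 4 members were at unc-62, which the transgene carries. The ceh-13 peak lay 4466 bp upstream and was among the weaker members (33.8, with 3.70 in replicate 1 and 27.4 in replicate 2). The Iroquois-class TALE gene irx-1, in neither this list nor that of other homeobox genes, also held a member (32.3). Among 62 other homeobox genes, ceh-43, a Distal-less-class gene, had a member in an intron (74.7) and another 4020 bp upstream (67.3). The only other gene of that list was ttx-1, which brought the list to 1.09% of members against 0.630% of eligible bases, and in the 843 strongest peaks of replicate 2 alone, sorted by the same rule, the list had 1 gene. A member in an intron of emb-4 (61.4) lay 3009 bp upstream of the homeobox gene ceh-51 and was assigned to emb-4. With every member assigned to its nearest start, the list had 3 genes. Promoter peaks were found at 3 of the 62 genes (4.84%, against 2.22% of all genes). Nuclear hormone receptor genes had 6 of 247 (2.43%, against 1.42% of all genes), led by nhr-46 (57.1) and nhr-76 (56.2), at 2.55% of members against 1.53% of eligible bases.

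The other transcription factor families held more members than their share of bases. Of 123 such genes, 15 (12.2%) were assigned members, against 1.42% of all genes. They took 16 members (5.82%), while 1.44% of eligible bases would be assigned to these genes. Beside fkh-7 they included egl-44, the TEAD-class gene (69.4 and 45.5), atf-7, a bZIP gene (64.5), and egl-27, related to metastasis-associated proteins (54.3). The peaks of egl-44 and atf-7 were intronic, and that of egl-27 lay 5698 bp upstream. The T-box gene tbx-8 (42.1), 2374 bp from its member, was named after its values were seen, because its sequence is shown. Promoter peaks were found at 5 of the 123 genes (4.07%, against 2.22% of all genes). None of the shares of lists was tested.

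Signalling genes had 8 of 72 (11.1%) with 8 members (2.91%), against 0.951% of eligible bases. A ligand, the FGF gene let-756, had a member 4101 bp upstream (56.3, with 23.0 in replicate 1 and 32.6 in replicate 2). The secreted BMP regulator gene crm-1 had a member 2020 bp upstream (48.5). The Ror receptor gene cam-1 held a member in an intron (33.8).

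Of the genes acting inside the cell, sos-1 was described above, and the Smad gene daf-14 (37.9) and daf-5, which encodes a Ski-related partner of Smads (32.3), held intronic members. At the level of transcription, pop-1, the TCF gene of the Wnt pathway, had a member 1429 bp upstream (43.8), and lag-1, the CSL factor of Notch signalling, an intronic member (32.5). These last 2 genes also stand in the transcription factor list. Of the 72 signalling genes, 1 (1.39%) had a promoter peak, against 2.22% of all autosomal protein-coding genes. In the 843 strongest peaks of replicate 1 alone, 5 signalling genes had members.

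Insulin, TOR and lifespan genes had 6 of 60. Members lay in an intron of the FOXO gene daf-16 (51.6), upstream of the S6 kinase gene rsks-1 (38.7), behind ins-13 (34.5) and in an intron of ins-12 (32.7). The summit behind ins-13 was inside the snRNA gene sls-2.2 and the ncRNA gene C17C3.23. The list took 2.18% of members against 0.499% of eligible bases. Of these 6 genes, daf-16, hlh-30 and pqm-1 also stand in the transcription factor list, so the excess of either list is partly made by the same peaks. Cell cycle genes had 4 of 41, cki-2 (114), the cyclin D gene cyd-1 (55.2), the F-box gene lin-23 (45.0) and the cyclin E gene cye-1 (33.7), at 1.45% of members against 0.259% of eligible bases. Promoter peaks were found at 3.33% of the insulin, TOR and lifespan list and at 7.32% of the cell cycle list, against 2.22% of all genes. In the strongest peaks of replicate 2 alone the insulin, TOR and lifespan list had 2 genes, and in those of replicate 1 alone the cell cycle list had 2.

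The other lists had members at or below their share of bases, or close to it. Chemoreceptor genes had 3 of 1143 (sre-44, srj-15 and srh-70), at 1.09% of members against 4.68% of eligible bases. Ion channel and synaptic genes had 1 of 189 (asic-2), at 0.364% of members against 2.37% of eligible bases. Muscle genes had 1 of 41 (cpn-3), which is 2.44% of the list against 1.42% of all genes, and 0.364% of members against 0.761% of eligible bases. There were 0 members at the 63 genes of the adhesion, guidance and basement membrane list (1.63% of eligible bases). The 145 cuticle collagen genes (0.487%) and the 79 ribosomal protein genes (0.109%) also had 0. The lists do not hold every gene of their kind. Outside the first of these, the fibulin gene fbl-1 had 2 members (37.4 and 38.8). The peroxidasin gene pxn-1 (35.4) and the axon guidance gene max-1 (44.4) each had a member. For the collagen and ribosomal lists, shares this small leave little room for a lower count. A promoter peak was found at 15 of the 79 ribosomal protein genes (19.0%, against 2.22% of all genes), and the difference between the kinds of peak was not tested. In the strongest peaks of replicate 2 alone, 0 chemoreceptor genes and 1 gene of the adhesion, guidance and basement membrane list had members. In those of replicate 1 alone, 3 genes of the latter list and 2 muscle genes did.

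Intestinal and yolk genes had 4 of 215 (1.86%), with asp-13, an aspartyl protease gene (59.4), cyp-34A9, a cytochrome P450 gene (40.0), fat-1, a fatty acid desaturase gene (38.5), and pgp-2, an ABC transporter gene (32.1). They took 1.45% of members, close to their 1.20% of eligible bases. Promoter peaks were found at 14 genes of that list (6.51%, against 2.22% of all genes), and the strongest peaks of replicate 2 alone gave members at 7. Proteostasis genes had 4 of 432 (0.926%), fbxl-5, dnj-20, fbxa-30 (47.0) and fbxb-22 (39.7), at 1.82% of members against 1.59% of eligible bases. A promoter peak was found at 15 of them (3.47%). The polyubiquitin gene ubq-1, which the proteostasis list leaves out, had a member 1242 bp upstream (64.8).

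**Figure D4:**
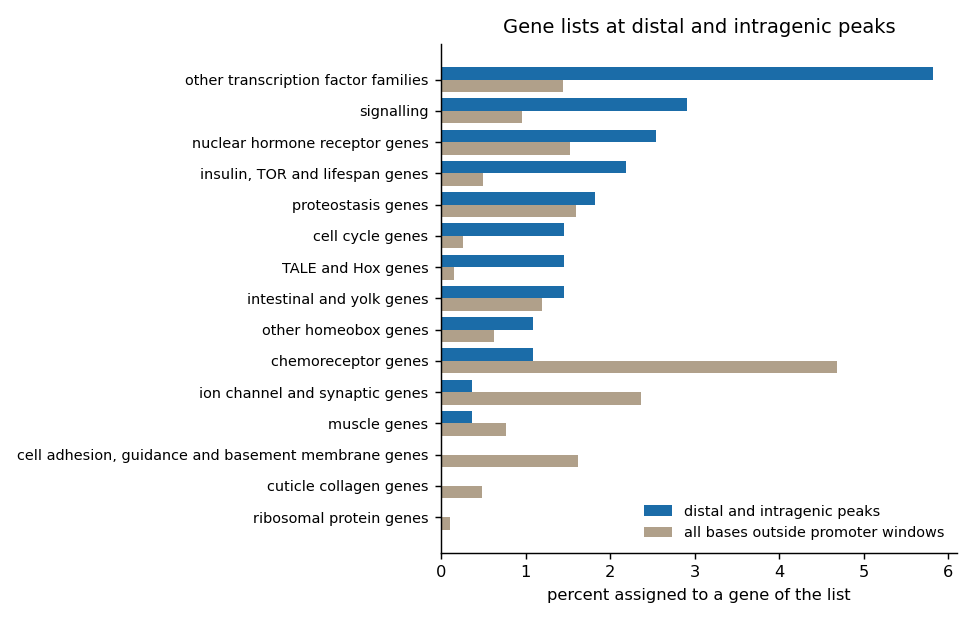
Percent of the 275 distal and intragenic peaks (blue) and of all bases outside the promoter windows (tan) assigned to a gene of each of 15 lists. In percentage points the gap is widest above the bases for the other transcription factor families (5.82% against 1.44%) and widest below them for chemoreceptor genes (1.09% against 4.68%), while the TALE and Hox list stands higher as a ratio (1.45% against 0.146%).

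The Meis-type word TGACAG, sought on both strands within 50 bp of the summit, occurred in 70 members (25.5%, 20.4% to 31.0%). It occurred in 18.9% of promoter peaks and in 3.32% of the 596161 windows of 101 bp tiled over the eligible autosomal sequence. The share was 29.1% for the 172 members outside protein-coding genes and 19.4% for the 103 inside them. By signal, 27 of the 91 strongest, 27 of the 91 middle and 16 of the 93 weakest members had the word. The words gathered at the summit, with 16 per 100 members in the 50 bp to its left and 13.5 in the 50 bp to its right, against 4.73 in the next 50 bp on either side.

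**Figure D5:**
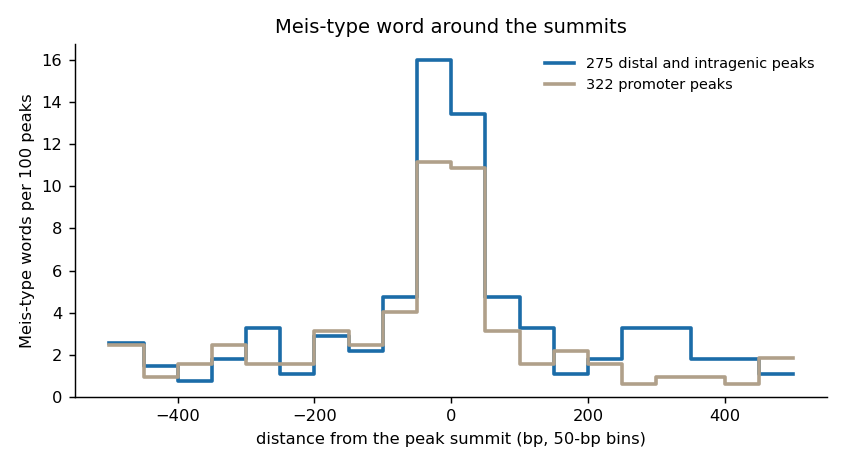
Meis-type words per 100 peaks in 50-bp bins of distance from the summit, for 275 distal and intragenic peaks (blue) and 322 promoter peaks (tan). Both lines peak in the 50 bp on either side of the summit, at 16 and 13.5 for members and at 11.2 and 10.9 for promoter peaks.

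The composite word TGATTGAC occurred in 18 members (6.55%, 3.93% to 10.1%), in 3.73% of promoter peaks and in 0.259% of tiled windows. It overlaps the Meis-type word when followed by AG, and 6 of the 18 members had both words. Members with it had a median signal of 52.8, against 40.2 for those without. The contrast was not particular to this word, since the GATA word AGATAA gave 50.3 against 40.2. Other words sought had smaller contrasts, and members with the E-box CACGTG had the lower median (36.1 against 41.7). Members with the composite word included the unc-62, dnj-20, ceh-43, ras-1, egl-44, cyd-1, tbx-8 and cyp-34A9 peaks whose sequences are printed.

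Other words differed less from the tiled windows, apart from repeats and the E-box. The Pbx-Hox word TGATNNAT occurred in 8.73% of members, 7.76% of promoter peaks and 7.82% of tiled windows. The GATA word AGATAA occurred in 9.45% of members, 5.59% of promoter peaks and 5.57% of tiled windows. The repeat GAGAGAGA occurred in 5.82% of members, 5.28% of promoter peaks and 0.638% of tiled windows. The E-box CACGTG occurred in 8.36% of members, 4.97% of promoter peaks and 1.72% of tiled windows. All words were sought on both strands. The median content of G and C was 40.6% in member windows, 41.6% in promoter peak windows and 35.6% in tiled windows. Repeat-masked bases made up 16.1% of member windows, 17.6% of promoter peak windows and 37.5% of tiled windows. The part of base composition and repeats in the shares of words was not tested.

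Noncoding genes, which the choice of members did not use, were near these peaks more or less often than eligible bases, by biotype. A gene of the ncRNA biotype lay within 200 bp of the summit in 34 members (12.4%), against 11.5% of promoter peaks and 2.78% of eligible bases. A snoRNA gene did so in 6 (2.18%), against 2.48% of promoter peaks and 0.180% of eligible bases, one of them beside the dnj-20 peak. Long intergenic noncoding genes lay near 5 members (1.82%), against 0.311% of promoter peaks and 0.342% of eligible bases. These were linc-91, linc-107 with a pair of members and linc-164 with another pair. The linc-107 members had signals of 57.7 and 64.4 and were assigned to C30G12.2. The linc-164 members had signals of 74.5 and 72.5 and were assigned to the Ras-related GTPase gene ras-1. The miRNA gene mir-53 lay within 200 bp of 1 member (35.7), that is 0.364% of members against 0.101% of eligible bases. In the other direction, piRNA genes lay near 3 members (1.09%), against 1.86% of promoter peaks and 4.46% of eligible bases. Pseudogenes lay near 1 member (0.364%), against 0.932% of promoter peaks and 5.11% of eligible bases. The other biotypes had at most 2 members each.

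Members were more frequent in the middle of the autosomes. The middle part of each chromosome, 1 of 3 equal parts, held 136 members (49.5%, 43.4% to 55.5%), against 52.8% of promoter peaks and 31.8% of eligible bases. Per megabase of eligible sequence there were 3.28 members on chromosome I, 5.42 on II, 5.56 on III, 4.16 on IV and 4.58 on V.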

How the data were processed

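The data are ChIP-seq peak lists from 2 biological replicates. The deposited README texts say that replicate lists came from 1 alignment each with a control, the pooled list from both, and the IDR-thresholded list from all of these. The sources used here do not give the aligner or the peak caller. The signal value of each peak, as deposited by the authors, was used to describe and rank peaks within a list. Read depth is unknown, so intervals cover counting of peaks only. Lists on ce10 were not used, and 0 per-sample columns were left unused. The replicate lists held 30000 and 28092 peaks.

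Summits were the deposited positions, and genes were those of Ensembl release 115 on WBcel235 (ce11). A member was assigned to the protein-coding gene around its summit, or else to the gene with the nearest start. Positions are 1-based. Backgrounds were all autosomal bases outside the promoter windows (72.9% of the autosomes) and windows of 101 bp tiled over them. No test was made, since there is 1 group and peaks are not replicates. Computation used Python 3.11.15, numpy 2.4.6, pandas 2.3.3, scipy 1.17.1 and matplotlib 3.10.9. Some steps were checked on planted positions, peaks and words, and all 6 checks recovered every planted case. The check of coding sequence used coding exons of the same annotation, so it could hardly fail. The side of the nearest start, the number of an intron and the kind of gap were not checked.

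Members, the 15 gene lists and the 6 words were chosen with earlier results of these data known. Named genes were those of the 20 strongest members, of clusters of 3, of the 5 farthest members and of the TALE and Hox and signalling lists, at most 4 of every other list, and unc-62. Genes at window borders, in small counts, near noncoding genes and beside printed sequences were named outside this rule, after their values were seen. So were irx-1, ceh-51, emb-4, fbl-1, pxn-1, max-1 and ubq-1. Alternatives covered other windows and starts, the stronger part of the peaks, each replicate alone (its 843 strongest peaks), and other distances and overlaps.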

Additional observations from a re-analysis of the deposited data

How the results depend on the processing

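The shares of members between genes and in introns, in first introns and in introns of 1000 bp or more, the median signal and the number of genes assigned stayed within the main 95% interval, or within 1.5 times for counts, under every alternative run for them. In all, 56 of 72 recomputed main values did so. The number of members was 175 with promoter windows from 2000 bp upstream to 500 bp downstream and 144 among the stronger 298 autosomal peaks, and ran from 284 to 301 with either replicate left out. The median distance was 1370 bp with windows of 500 and 100 bp, 2700 bp with windows of 2000 and 500 bp, and 1245 bp to starts of genes of any biotype. Members found in both replicates were 95.6% with 50% overlap and 90.5% with summits within 100 bp. Members in clusters were 12.4% at 2000 bp and 26.5% at 10000 bp. Members with any peak within 5000 bp were 25% among the stronger peaks. The Meis-type share was 33.1% within 100 bp of the summit and 16% within 25 bp, and 17.6% to 23.2% with a replicate left out, the lower value without replicate 2. The composite share was 3.27% within 25 bp. Summits inside noncoding genes made up 4.73% for the ncRNA biotype and 0% for snoRNA genes. The causes were not tested beyond these constructions. Of the 45 recomputed list counts 9 moved by over 1.5 times, all of lists where 8 or fewer genes had members; insulin, TOR and lifespan genes had 2 without replicate 1 and signalling genes 5 without replicate 2. Using 1 member per cluster, leaving out narrow peaks, and the alternatives for introns and for the nearest other peak were chosen after seeing the data. No paired analysis was possible because there was 1 group. Depth limits how many weak sites could pass, and it is unknown.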
